A study of Mus musculus with 8 samples.

Results

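The comparison described here is the AGO2 immunoprecipitate (IP) against its input in proliferating B cells of the mouse. It takes the 2 IP libraries and the 2 input libraries of these cells, 4 of the 8 libraries of the study, and every miRNA feature with a count in them. Of 2202 features, 482 had at least 1 count in the 4 libraries, and 219 had enough counts to be tested. The study sequenced small RNA that came down with AGO2, and the small RNA of the same cells before precipitation, from resting and from proliferating B cells. The cells of all groups carried the genotype Ago2HA/HA, in which AGO2 bears an HA tag that the antibody binds. They were taken from spleen as resting B cells with beads that remove CD43-bearing cells, and the proliferating groups were then activated in vitro. No separate allele, drug or animal age distinguishes the groups in the labels, and the sources used here do not give the agent or the duration of the activation. Animals without the tag yielded no RNA in the precipitation, per the labels, so no library of that kind serves as a background and the input is the only reference.

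Total counts were 276287 and 213418 in the inputs and 795229 and 1376045 in the IPs. The floor used here, 3 counts, equals 10.9 and 14.1 CPM (counts scaled to a common total) in the inputs and 3.77 and 2.18 CPM in the IPs. With the trimmed-mean scaling of the levels below, it equals 8.47 and 10.5 CPM in the inputs and 4.39 and 2.54 CPM in the IPs. A feature of low level was therefore measured less precisely in the input than in the IP. The 10 most abundant features held 76.1% and 75.7% of the input counts and 83.3% and 81.6% of the IP counts. Levels below are CPM with trimmed-mean (TMM) scaling, given in the order input 1, input 2, IP 1, IP 2 unless said otherwise. A level or fold change is therefore relative to the other features after this scaling. It is neither a number of molecules nor a share of a library, and some features with a higher scaled level in the IP took a smaller share of its counts. Whether both libraries of a group are from separate animals or cultures is not in the labels. The p-values then rest only on spread between libraries, which may be technical. The fit estimates that spread from all 8 libraries of both cell states and shares it across features (36.6 prior against 4 residual degrees of freedom). An exact 2-sided permutation test of 2 libraries against 2 cannot go below 0.333. Each feature is a hairpin gene whose count covers both arms, so the arm that was bound was not measured. RefSeq gene symbols are used, in which Mir146 is the gene of miR-146a, Mir18 that of miR-18a, and Mir92-1 and Mir92-2 those of miR-92a.

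AGO2 is the Argonaute protein that holds a mature miRNA and pairs it with messenger RNAs, mainly through the seed, the bases near the 5′ end of the miRNA. A hairpin precursor gives a duplex from which 1 strand is kept in the Argonaute protein and the other is usually lost, and small RNAs such as snoRNA and tRNA pieces are not its usual cargo. In lymphocytes the miR-17 clusters are known for promoting proliferation and survival, miR-155 and miR-146a for their induction on activation, and let-7 and miR-150 for high levels in quiescent cells.

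The sequences below are mature miRNAs of RefSeq (GRCm38.p6), 5′ to 3′, with the seed, bases 2 to 8, in capitals. The arm shown is the one usually found as the abundant product. The first set is shown because the miR-18 genes were not called, while most other members of the miR-17 clusters were called higher.
miR-17-5p: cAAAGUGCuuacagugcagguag
miR-93-5p: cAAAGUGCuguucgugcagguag
miR-20a-5p: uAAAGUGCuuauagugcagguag
miR-20b-5p: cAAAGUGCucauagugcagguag
miR-18a-5p: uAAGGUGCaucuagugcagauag
miR-18b-5p: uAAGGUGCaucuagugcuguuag
miR-19a-3p: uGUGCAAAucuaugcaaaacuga
miR-92a-3p: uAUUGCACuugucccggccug
miR-25-3p: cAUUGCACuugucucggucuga
The seed of miR-18a differs from that of miR-17 by A4G (the base of miR-17, the position counted from 1 at the 5′ end, the base of miR-18a), and of the 6 positions at which they differ, this is the 1 in the seed. miR-20b and miR-18b, a pair from another cluster, differ in the seed by the same change, A4G. miR-92a and miR-25 share their seed and differ at 3 positions outside it.

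The second set holds miRNAs of hairpin loci at which the ratio of neighbours changed between input and IP. miR-27b is from another locus than miR-27a, and its neighbour miR-23b is not printed.
miR-23a-3p: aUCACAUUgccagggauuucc
miR-27a-3p: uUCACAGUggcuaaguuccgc
miR-27b-3p: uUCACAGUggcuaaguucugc
miR-221-3p: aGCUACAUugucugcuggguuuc
miR-222-3p: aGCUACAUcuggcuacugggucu
miR-23a and miR-27a differ at 10 positions, 1 of which (U7G) lies in the seed. miR-221 and miR-222 have the same seed and differ at 12 positions, from U9C to C23U, all outside it.

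The third set holds let-7 miRNAs, all of which but let-7j share a seed. Some of their genes were called lower and others were not called.
let-7i-5p: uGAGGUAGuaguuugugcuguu
let-7b-5p: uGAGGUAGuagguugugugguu
let-7g-5p: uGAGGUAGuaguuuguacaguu
let-7d-5p: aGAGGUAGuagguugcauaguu
let-7f-5p: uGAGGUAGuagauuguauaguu
miR-98-5p: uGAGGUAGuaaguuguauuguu
let-7j: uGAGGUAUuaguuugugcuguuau
let-7g differs from let-7i at G17A and U19A alone. let-7j differs from let-7i over their shared length by a single change in the seed, G8U. Where reads cross between such close sequences, the counts of single genes are uncertain.

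Of the 219 tested features, 59 differed between IP and input, 26.9% of them, with 29 higher in the IP (13.2%) and 30 lower (13.7%), at an adjusted p under 0.05 by the quasi-likelihood test of edgeR with Benjamini-Hochberg adjustment, which is the threshold throughout. The rises included abundant genes, among them members of the miR-17 clusters, Mir21a, Mir15b and Mir342. The falls included let-7 genes and many features with few counts or over other small RNA genes. The median log2 fold change of all tested features was 0.11, and 119 features lay above 0 and 100 below. The direction of the split depended on scaling: with library totals in place of TMM factors the median was -0.50, with 16 calls higher and 60 lower. Upper-quartile factors gave a median of -0.02, with 23 calls higher and 31 lower. Of the 59 calls, 23 were made under each of the other settings and with each of the 8 libraries left out, 11 higher and 12 lower, and each of the others lost its call under at least 1 of these. The 11 were Mir93, Mir25, Mir92-1, Mir92-2, Mir19a, Mir20b, Mir15b, Mir23a, Mir221, Mir532 and Mir1983. The 12 were Mirlet7i, Mirlet7b, Mir7j, Mir423, Mir744, Mir30d, Mir33, Mir677, Mir5099, Mir5121, Gm24148 and ENSMUSG00000105167.1.

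**Figure D1:**
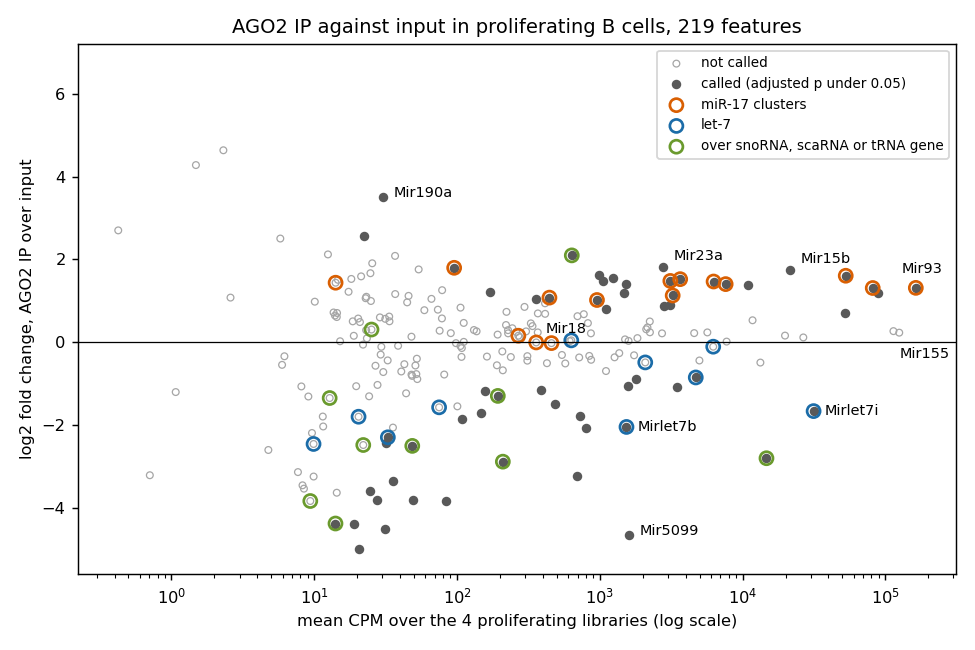
Log2 fold change of AGO2 IP over input (y axis) against the mean CPM of the 4 proliferating libraries (x axis, log scale) for the 219 tested features, with called features filled and 3 groups ringed. The ringed miR-17 cluster members lie near or above 0, up to 1.80 for Mir19b-2, with Mir18 at -0.01 and Mir18b at -0.02, while the let-7 members lie between 0.04 and -2.46.

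The 3 miR-17 clusters were the largest group that rose. All 15 members were tested, and 11 were called higher and none lower, beside 13.2% and 13.7% over all features. The median log2 fold change was 1.31, against 0.11 over all tested features. With library totals 7 were called higher, and without input replicate 2, 6. The Mcm7 cluster on chromosome 5 was higher throughout, with 3 of 3 members called. Mir93 (138165523 to 138165610, mm10), whose miRNA shares the seed of miR-17, was at 96569, 91342, 248489 and 217967 CPM. Both IPs were far above both inputs, and the log2 fold change of 1.31 had an SE of 0.21 (adjusted p = 5.1e-06 by edgeR). Mir25 (138165321 to 138165404), of the miR-92 seed group, was at 46483, 47477, 95283 and 137342 CPM, and the groups did not overlap (log2 fold change 1.31 with SE 0.23; adjusted p = 2.2e-05 by edgeR). Mir106b (138165737 to 138165818) lies beside them but gave only 91, 90, 335 and 842 counts, and its log2 fold change of 1.08 passed more narrowly (SE 0.38; adjusted p = 0.031 by edgeR). The cluster took 18.4% and 18.6% of the input counts and 30.5% and 29.6% of the IP counts, in ascending order for the inputs and descending for the IPs.

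The cluster in Mir17hg, on chromosome 14, had 4 of 6 members higher, with a median log2 fold change of 1.42. Mir92-1 (115044427 to 115044506) led it at 26531, 25764, 72067 and 86929 CPM, a log2 fold change of 1.60 (SE 0.23; adjusted p = 9.3e-07 by edgeR). Mir19a was at 1865, 1915, 5159 and 5695 CPM (log2 fold change 1.52 with SE 0.29). Mir20a stood at 4307, 4058, 11040 and 11067 CPM (1.40, SE 0.27) and Mir17 at 2038, 2034, 3882 and 5012 CPM (1.13, SE 0.29). In each of these 4 genes both IP libraries were above both inputs. Mir20a was not called without input replicate 2, at 1.02, and Mir17 was not called with library totals, at 0.52, or without input replicate 1 (1.04) or 2 (0.77). Mir18, which lies between Mir17 and Mir19a (115043851 to 115043946), was not called: its libraries overlapped, at 389, 330, 317 and 399 CPM, with a log2 fold change of -0.01 (SE 0.39; adjusted p = 0.99 by edgeR). The other member not called was Mir19b-1, with 5 and 0 input counts and 22 and 12 IP counts.

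In the paralogous cluster on chromosome X 4 of 6 members were higher, with a median log2 fold change of 1.24. Mir20b (52742113 to 52742192) was at 3243, 3427, 8463 and 9945 CPM (log2 fold change 1.46 with SE 0.27; adjusted p = 5.1e-05 by edgeR), and Mir92-2 was at 1721, 1575, 4498 and 4693 CPM (1.48, SE 0.29). Mir92-1 and Mir92-2 have the same mature sequence, so the counts of each are not assigned with certainty and their calls are not separate evidence. Mir106a rose by 1.02 and Mir19b-2, with 20 and 8 input counts, by 1.80. Mir18b was at 460, 466, 284 and 626 CPM, its 2 IP libraries lying on either side of the inputs, with a log2 fold change of -0.02 (SE 0.39; adjusted p = 0.97 by edgeR). Mir363 was not called either, at 0.16 (SE 0.43). With TMM scaling both miR-18 genes thus stood near 0 in clusters whose miR-20 and miR-92a genes rose. A place near 0 depends on the scaling: with library totals the median of all tested features moved from 0.11 to -0.50.

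Ratios of 2 neighbours within a library do not depend on how libraries are scaled. The rule for these pairs (tested features of a strand, at most 10 kb from the next, at least 10 counts in each of the 4 libraries) was chosen after the data were seen, and gave 43 pairs, of which 29 did not overlap between IP and input, 14 of them by over 2-fold. For comparison, the levels of 134 of the 219 tested features (61.2%) did not overlap between IP and input, so that the number of pairs apart is not a result by itself. Reads of Mir20a over those of Mir18 were 11.1 and 12.3 in the inputs and 34.8 and 27.8 in the IPs, 2.66 times as high. Mir17 over Mir18 was 5.23 and 6.17 in the inputs and 12.2 and 12.6 in the IPs. Mir20b over Mir18b was 7.05 and 7.35 in the inputs and 29.8 and 15.9 in the IPs. For these pairs each IP ratio was above each input ratio. By contrast, Mir25 over Mir93 was 0.481 and 0.520 in the inputs and 0.383 and 0.630 in the IPs, so that the groups overlapped. Mir92-1 over Mir19a overlapped too, at 1.06 times the input ratio in the IP.

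The largest such difference lay at the miR-23a locus on chromosome 8 (84208518 to 84208758). Mir23a was at 1250, 1196, 4506 and 4111 CPM, a log2 fold change of 1.82 (SE 0.30; adjusted p = 7.8e-06 by edgeR). Mir27a, its neighbour, was at 1400, 1336, 826 and 861 CPM, with both IPs below both inputs, but did not pass (log2 fold change -0.70 with SE 0.31; adjusted p = 0.094 by edgeR), and it passed as lower with library totals, with upper-quartile factors and in the proliferating libraries alone. Mir23a had 0.893 and 0.895 counts per count of Mir27a in the inputs and 5.45 and 4.77 in the IPs, 5.71 times as many. The homologous locus on chromosome 13, within the span of Aopep, gave a like result. Mir23b was at 564, 410, 1610 and 1372 CPM (1.61, SE 0.34; adjusted p = 2.5e-04 by edgeR) and Mir27b at 8492, 6902, 8480 and 7068 CPM (0.01, SE 0.26), and their ratio rose from 0.0665 and 0.0595 to 0.190 and 0.194. Mir23b was not called without input replicate 2, at 1.07.

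At 2 further loci neighbours parted. Mir221, known with Mir222 for targeting the cell cycle inhibitor p27, was at 748, 919, 2010 and 2402 CPM (log2 fold change 1.41 with SE 0.31; adjusted p = 5.2e-04 by edgeR). Mir222, which shares its seed, was at 621, 730, 339 and 604 CPM (-0.51, SE 0.36; adjusted p = 0.32 by edgeR). Their count ratio was 1.20 and 1.26 in the inputs and 5.92 and 3.98 in the IPs. Mir30b and Mir30d, on chromosome 15 (68337415 to 68341289), were called in opposite directions, as happened at 1 of the 28 loci with 2 or more tested features. Mir30b was at 866, 922, 2010 and 2074 CPM (1.19, SE 0.29) and Mir30d at 4879, 4616, 2102 and 2381 CPM (-1.08, SE 0.27; adjusted p = 0.0018 by edgeR). The ratio of Mir30b to Mir30d was 0.178 and 0.200 in the inputs and 0.956 and 0.871 in the IPs. In all, 11 of the 28 loci held a called member beside one not called or called the other way, 1 had every member higher, 1 every member lower and 15 no call. As 26.9% of all tested features were called, the number of loci with mixed calls is not a result by itself.

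**Figure D2:**
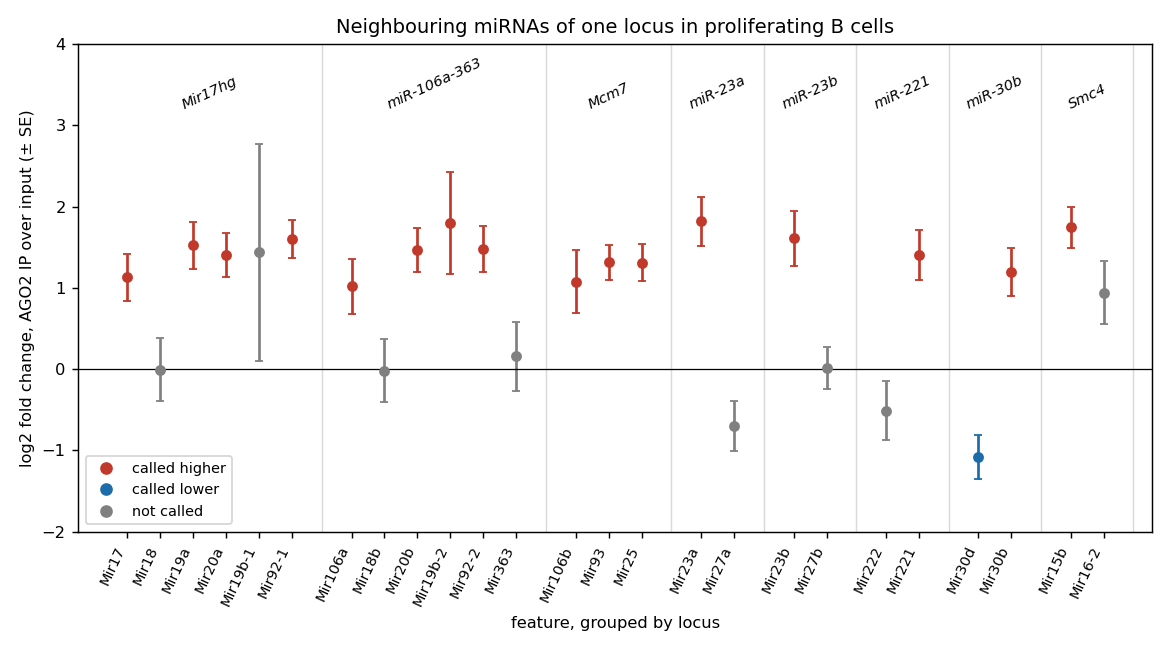
Log2 fold change of IP over input with its SE (y axis) for neighbouring miRNA genes, grouped by locus (x axis). Mir18 (-0.01), Mir18b (-0.02) and Mir363 (0.16) sit near 0 beside called members between 1.02 and 1.80, and Mir23a (1.82) and Mir27a (-0.70), Mir221 (1.41) and Mir222 (-0.51), and Mir30b (1.19) and Mir30d (-1.08) lie apart.

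Among abundant miRNAs outside the clusters, Mir21a and Mir15b rose. Mir21a (chromosome 11, 86584067 to 86584158, in the span of Vmp1), a miRNA induced on lymphocyte activation and known to repress tumour suppressors such as Pdcd4, was at 56380, 53461, 146807 and 101615 CPM (log2 fold change 1.18 with SE 0.22; adjusted p = 5.6e-05 by edgeR). The IPs differed from each other more than the inputs did, and the rise did not pass without input replicate 2, at 0.82. Mir15b (chromosome 3, 69009772 to 69009835, in the span of Smc4), whose miRNA is known for targeting cyclins and Bcl2, was at 9781, 10017, 38388 and 27958 CPM (1.74, SE 0.25; adjusted p = 8.9e-07 by edgeR). Mir16-2, next to it, was at 420, 144, 610 and 481 CPM and did not pass (0.94, SE 0.39; adjusted p = 0.067 by edgeR). Mir15a and Mir16-1 on chromosome 14, which share the seed, were at -0.33 and -0.31 and did not pass either. The miR-16 genes have identical mature sequences, so their counts are not assigned with certainty. Mir342 (in the span of Evl) was at 39157, 40344, 64240 and 66330 CPM and rose by 0.72, a call lost with library totals (0.11) and with upper-quartile factors (0.58).

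Of the 12 tested members of the activation list 3 were called, near the 26.9% called over all features. Mir155 was the most abundant in the input, and its levels of 119612, 110905, 125485 and 144852 CPM gave a log2 fold change of 0.23 (SE 0.22; adjusted p = 0.48 by edgeR). Mir146, an NF-kappaB target that feeds back on its pathway, was at 108199, 98830, 121316 and 127772 CPM (0.27, SE 0.22; adjusted p = 0.42 by edgeR). The direction of both depended on the scaling: as shares of all counts, both IPs were below both inputs. Mir155 took 15.3% and 14.8% of the input counts and 10.8% and 12.4% of the IP counts, and its log2 fold change with library totals was -0.38. Mir146 took 13.9% and 13.2% of the input counts and 10.4% and 11.0% of the IP counts, and stood at -0.34 with library totals. Without input replicate 2 they were at -0.17 and -0.14, and neither was called in any of these settings. The 3 called members were Mir21a and Mir221, which were higher, and Mir146b (44 input and 13 IP counts), which was lower, and the median of the list was 0.31, against 0.11 over all features.

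The miRNAs known from resting lymphocytes had 1 of 11 tested members higher (Mir30b) and 3 lower, beside 13.2% and 13.7% over all features, with a median of -0.68 against 0.11. Mir150, which restrains Myb, was at 22419, 28773, 35791 and 19629 CPM: IP 1 was above and IP 2 below both inputs, and the log2 fold change was 0.11 (SE 0.23; adjusted p = 0.73 by edgeR), or -0.50 with library totals, without passing. Mir26b was at 18770, 18736, 20558 and 21315 CPM (0.16, SE 0.23), and at -0.45 with library totals and -0.18 without input replicate 2, without passing in either. Mir29c fell, from 2396 and 2255 to 1338 and 1177 CPM (-0.89, SE 0.28; adjusted p = 0.015 by edgeR, not called without input replicate 1 or IP replicate 2), as did Mir30d and Mir30c-1 (-1.85). Mir29a, which shares the seed of Mir29c, was at 15462, 15719, 10714 and 11455 CPM (-0.49, SE 0.27; adjusted p = 0.19 by edgeR), and was called lower with library totals, at -1.10.

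**Figure D3:**
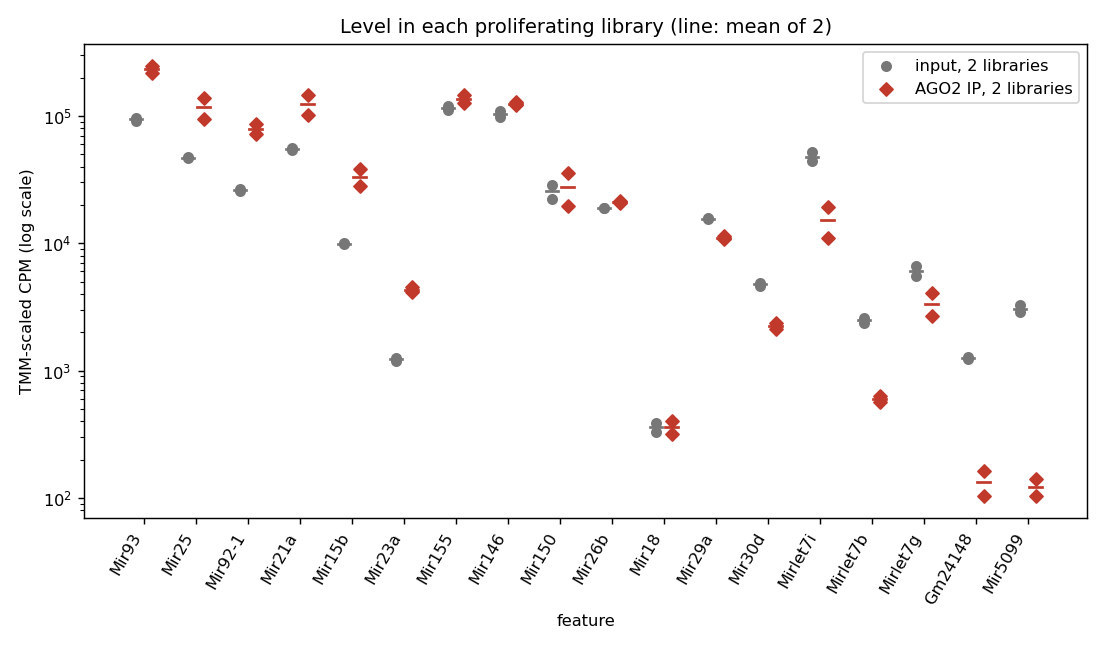
TMM-scaled CPM (y axis, log scale) of 18 features (x axis) in the 2 input and 2 IP libraries, with a line at each mean. Mir93, Mir25, Mir92-1, Mir21a, Mir15b and Mir23a are higher in both IPs, the points of Mir150 and Mir18 overlap, and Mir30d, the 3 let-7 genes, Gm24148 and Mir5099 are lower in both IPs.

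let-7 genes were lower or not called. Of 14 listed members 12 were found under the listed symbols, and 10 of them had counts and were tested. Of these, 4 were called lower and none higher, beside 13.7% and 13.2% over all features. Their median was -1.62, against 0.11 over all features. Mirlet7e and Mirlet7f-1 had no count. Mirlet7i (chromosome 10, 122985640 to 122985724), the most abundant, was at 51783, 43879, 11049 and 19130 CPM, a log2 fold change of -1.66 (SE 0.25; adjusted p = 1.9e-06 by edgeR). Mirlet7b (chromosome 15, 85707319 to 85707403) was at 2602, 2353, 632 and 568 CPM (-2.05, SE 0.29; adjusted p = 8.9e-07 by edgeR). Both IP libraries were well below both inputs in these genes. Mirlet7g (in the span of Wdr82) fell less, from 6612 and 5496 to 2677 and 4030 CPM (-0.85, SE 0.27), and was not called without IP replicate 1 (-0.52) or without input replicate 1. Mirlet7a-1, with 33 input and 19 IP counts, was at -2.30.

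Other members with ample counts were not called with TMM scaling. Of the 10 tested members, 1 lay above 0 with TMM factors, and 0 with library totals or with upper-quartile factors. Mirlet7d was at 6807, 6131, 5039 and 6957 CPM (-0.11, SE 0.27; adjusted p = 0.77 by edgeR), and Mir98 at 683, 561, 622 and 661 CPM (0.04, SE 0.34). Mirlet7f-2, which lies beside Mir98 in the span of Huwe1, was at 2509, 2357, 1442 and 2024 CPM, with both IPs below both inputs (-0.49, SE 0.27; adjusted p = 0.21 by edgeR). Of the 6 features with the shared seed GAGGUAG and a mature sequence chosen here, 3 were lower and the range ran from -2.05 to 0.04. The list held let-7j under the symbol Mirlet7j, which was not found, so its RefSeq gene Mir7j is not in the list counts. Mir7j was at 779, 645, 215 and 290 CPM and was called lower (-1.49, SE 0.35; adjusted p = 9e-04 by edgeR). As its sequence is so close to let-7i, it is not separate evidence. With library totals 8 of the 10 let-7 members were called lower, and without IP replicate 1, 2.

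Further rises were found among miRNAs of moderate level. Mir532 (in the span of Clcn5) was at 5407, 6667, 14022 and 17405 CPM (log2 fold change 1.38 with SE 0.25; adjusted p = 4e-05 by edgeR), and its ratio to Mir501 of the same locus was 30.9 and 32.8 in the inputs and 57.1 and 67.5 in the IPs. Mir339 was at 522, 737, 1291 and 2405 CPM (1.56, SE 0.35). Mir28a, known from B cells, rose by 0.91, Mir361 by 0.88 and Mir350 by 1.05. Over the other settings and with each library left out, the lowest log2 fold changes were 0.94 for Mir339, 0.30 for Mir28a, 0.27 for Mir361 and 0.44 for Mir350. None of them kept its call throughout. Mir10a rose by 0.80, but was at 0.18 without input replicate 2 and at 0.20 with library totals, without passing in either. The 2 genes of the miR-190 seed both rose: Mir190b by 1.22, from 82 and 123 to 235 and 239 CPM, and Mir190a from 3 input counts to 105 IP counts, a ratio of 12.01 with a 95% exact counting interval of 3.999 to 59.2 that covers counting error only. Mir455, with 4 input and 70 IP counts, rose by 2.57. Reads are few behind the last 2 genes, and neither was called with either input left out.

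Other falls were found at miRNA genes of moderate level. Mir423 was at 1318, 1263, 230 and 382 CPM (log2 fold change -2.07 with SE 0.36; adjusted p = 2.3e-05 by edgeR). Mir744 was at 1098, 1168, 212 and 447 CPM (-1.77, SE 0.37; adjusted p = 2.4e-04 by edgeR). Mir33, which lies in the span of the sterol regulator Srebf2 and is known to target cholesterol transport, was at 542, 519, 254 and 223 CPM (-1.15, SE 0.35). Mir210, a hypoxia-induced miRNA, fell from 285 and 168 to 71.7 and 67.8 CPM (-1.70, SE 0.50). Mir3068 fell by 1.17 on the log2 scale. Neither Mir210 nor Mir3068 kept its call with each library left out, and their weakest values were -1.36 and -0.78. In each of these 5 genes both IPs lay below both inputs.

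Features that lie over other small RNA genes were mostly lower or not called. Of 10 tested features over a snoRNA, scaRNA or tRNA gene, 5 were lower and 1 higher, beside 13.7% and 13.2% over all features. Their median was -2.49, against 0.11 over all features. All 26 such features, tested or not, held 3.47% to 3.56% of the input counts and 0.399% to 0.450% of the IP counts. Nearly all of the input share lay in 1 feature, ENSMUSG00000105167.1, with means of 3.37% of the input and 0.317% of the IP counts. ENSMUSG00000105167.1 (chromosome 15, 80082847 to 80082954) covers the snoRNA gene Snord43 in the span of Rpl3. It was at 25884, 25589, 3314 and 4064 CPM (log2 fold change -2.80 with SE 0.25; adjusted p = 1.1e-11 by edgeR). Mir5121, over Snord33 in the span of Rpl13a, was at 420, 316, 68.7 and 33.1 CPM (-2.88, SE 0.43), and Mir664, over Snora36b, fell by 1.30 on the log2 scale. Mir1291, over Snora34, had 16 input and 2 IP counts, a ratio of 23.3 input over IP (95% exact counting interval 5.48 to 209).

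The exception was Mir1983 (chromosome 13, 21896918 to 21897049), which covers the isoleucine tRNA gene n-TItat14. It was at 203, 281, 1043 and 1021 CPM (log2 fold change 2.10 with SE 0.39; adjusted p = 5.1e-05 by edgeR), both IPs well above both inputs. The deposited count covers the whole feature, so reads of the annotated mature sequence are not separated from other tRNA pieces. That sequence is printed here because this feature alone in its group was called higher.
miR-1983: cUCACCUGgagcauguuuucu

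Mir5099 (chromosome 12, 36816205 to 36816278) had the largest fall among features with over 100 input counts, from 3251 and 2883 to 140 and 103 CPM (log2 fold change -4.66 with SE 0.42; adjusted p = 1.1e-11 by edgeR). Gm24148, in the span of the nucleolin gene Ncl, was at 1278, 1224, 162 and 104 CPM (-3.24, SE 0.36; adjusted p = 2.5e-09 by edgeR), and Mir677, in the span of Atp5b, at 186, 126, 14.6 and 7.63 CPM (-3.84, SE 0.72). Mir6240 (59 input and 11 IP counts), Mir142b (33 and 6), ENSMUSG00000076258.1 (38 and 5) and Mir6399 (26 and 2) fell on few counts. Mir142b lies opposite Mir142, and ENSMUSG00000092915.1 (25 input and 3 IP counts) overlaps Mir191, and neither Mir142 nor Mir191 had a count. The deposited numbers therefore do not show the level of miR-142 or miR-191, a pair known to be abundant in lymphocytes.

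Counts of features were also summed where their annotated mature sequences share a seed, and the sums were fitted in the same way, with TMM factors computed anew from the sums. The CPM of this paragraph use those factors and are not on the scale of the single genes: the median log2 fold change over the 161 tested sums was -0.05, against 0.11 over single features. Either arm counts for this, so the let-7 group also takes in Mir1961, the miR-92 group Mir32, Mir92b and Mir363, and the miR-18 group Mir7069. The 6 genes with the seed AAAGUGC (miR-17, miR-20a, miR-20b, miR-93, miR-106a and miR-106b) summed to 132003, 108898, 309160 and 220749 CPM, a log2 fold change of 1.14 (SE 0.24; adjusted p = 0.0020 by edgeR). All 6 were also called one by one. The miR-92 and miR-25 group rose by 1.21 (SE 0.23) and the miR-19 group by 1.34 (SE 0.28). The miR-18 group was at 1047, 852, 682 and 920 CPM (-0.24, SE 0.33; adjusted p = 0.70 by edgeR). The let-7 group summed to 87616, 65170, 24276 and 29963 CPM (-1.49, SE 0.25; adjusted p = 4.3e-04 by edgeR). The miR-221 and miR-222 sum was at 0.63 (SE 0.28; adjusted p = 0.12 by edgeR) and the miR-27 sum at -0.25 (SE 0.28), and the sum over Mir221 and Mir222 does not show that the 2 genes lay apart. In that fit 14 sums or single features were called higher and 26 lower.

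The label of the cells was set against marker miRNAs. Mir150 and Mir155, taken here as lymphocyte markers, were among the most abundant features, and the third, Mir142, had no count, as described above. Markers of other cell types were present too, and their part in the results was not tested. Of these lists the myeloid one, Mir223 alone, held the largest share of the inputs, 0.221% to 0.339%, and 0.0695% to 0.106% of the IPs. Of 11 neural markers 5 had counts, with 0.0796% to 0.0834% of the inputs and 0.0471% to 0.0605% of the IPs. Mir128-1 alone of them was tested, and it was not called (log2 fold change 0.03). The erythroid list, Mir144 among them, held 0.00181% to 0.00281% of the input counts and 0.000218% to 0.000377% of the IP counts, and the muscle list had no count. Of 15 stromal markers 9 had counts, with 0.0998% to 0.138% of the inputs and 0.123% to 0.146% of the IPs, and of the 5 tested Mir10a alone was called (higher, with the limits given above). The myeloid marker Mir223 was at 1724, 2536, 1237 and 811 CPM and fell (log2 fold change -1.06 with SE 0.31; adjusted p = 0.0091 by edgeR), a call not made with either IP or either input left out. The endothelial marker Mir126a was at 488, 614, 2046 and 1037 CPM and rose (1.48, SE 0.37; adjusted p = 0.0021 by edgeR), but not with library totals (0.87), without either input or without IP replicate 1. The hepatocyte marker Mir122 fell on 35 input and 17 IP counts. All 7 miR-200 list members had counts, 6 were tested and none was called, with a median of -0.19. Of the mirtron and DROSHA-independent list 6 were tested and none was called (median -0.08), and of the p53-linked list 3 and none (0.46). In bulk libraries fewer cells of a type and less RNA per cell cannot be told apart.

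The difference between the cell states was tested directly for each feature, as the log2 fold change of IP over input in proliferating minus that in resting cells. It passed for 38 of 219 features (17.4%), 21 above and 17 below 0, and 22 of the 38 were also called in proliferating cells. Of the 10 tested let-7 genes 6 differed, all 6 more negative in proliferating cells. Mirlet7b was at -2.05 in proliferating and 1.88 in resting cells, a difference of -3.92 (adjusted p = 1.3e-09 by edgeR), and Mirlet7i at -1.66 and 0.61 (difference -2.27, adjusted p = 1.2e-05 by edgeR). Mirlet7d, not called in proliferating cells, differed too, at -0.11 against 1.07.

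Of the 15 miR-17 cluster members 2 differed. Mir17 was at 1.13 in proliferating and -0.77 in resting cells (difference 1.90, adjusted p = 0.0012 by edgeR) and Mir20b at 1.46 and 0.25 (1.21, adjusted p = 0.022 by edgeR), while Mir93 stood at 1.31 and 0.79 without passing (adjusted p = 0.24 by edgeR). Mir23a was at 1.82 and 0.05 (1.77, adjusted p = 0.0025 by edgeR), and its neighbour Mir27a, at -0.70 and -2.28, differed by nearly as much, 1.59. Mir1983 was at 2.10 and -0.22 and Mir126a at 1.48 and -0.85. Cell state and count table coincide in the deposit, so a difference between tables cannot be told apart from that between states.

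**Figure D4:**
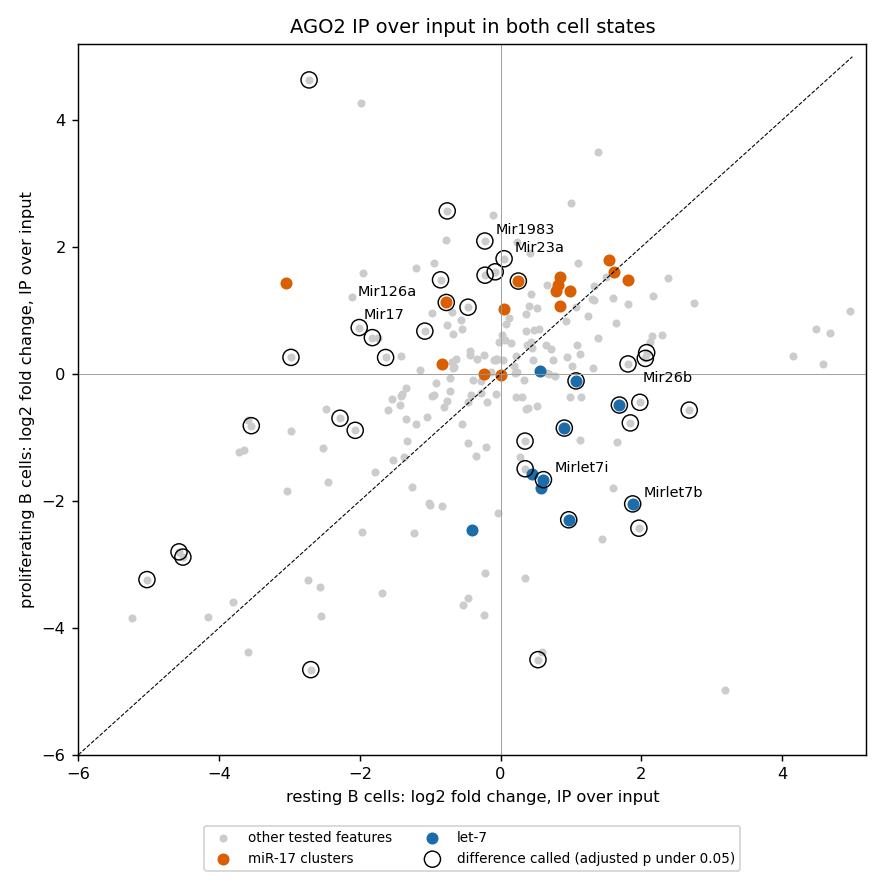
Log2 fold change of IP over input in proliferating cells (y axis) against that in resting cells (x axis) for the 219 tested features, with circles around the 38 whose difference passed and a dashed line at equal values. The let-7 genes lie below the line, Mirlet7b at 1.88 and -2.05, and Mir23a (0.05 and 1.82) and Mir17 (-0.77 and 1.13) lie above it.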

How the data were processed

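The deposited tables hold the authors' raw counts per miRNA gene, and their column names point to deduplicated alignments, per the file headers. Alignment used STAR 2.7.9a on mm10, with SAMtools 1.15, per the submitters' processing notes. The sources used here do not give the counter, its strand setting or its handling of multiply mapped reads. Features were named by exact match of coordinates to RefSeq genes of GRCm38.p6: 1179 matched, 1017 did not and 6 matched several genes. The 34 unnamed features with counts held 0.896% of the counts. Mature sequences were found for 412 of the 482 counted features. Host genes are overlaps of gene spans, which do not separate exons from introns.

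A quasi-likelihood model with 4 groups was fitted to all 8 libraries with edgeR 4.0.16 under R 4.3.3 (TMM factors, filterByExpr minimum count 10, 36.6 prior and 4 residual degrees of freedom), tested 2-sided with Benjamini-Hochberg adjustment over 219 features, at a threshold of 0.05. SE is the log2 fold change over the square root of the F statistic. DESeq2 1.42.0, other scalings, no filter, a replicate block, the proliferating libraries alone, features over other small RNAs left out, sums by seed and leaving out each library were tried. The 2 libraries of a group differed beyond sampling noise (chi-square over its degrees of freedom 8.57 for input and 165 for IP). Named features are the 12 largest rises and falls past the threshold with a mean of at least 10 CPM and groups apart, the 10 most abundant of each group, and list members. Members and lists were chosen with earlier results of these data known. Features such as Mir361 and Mir3068 outside that rule were named after their values were seen.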

Additional observations from a re-analysis of the deposited data

Results flagged for a closer look

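The log2 fold change of IP over input differed between proliferating and resting cells, by the edgeR test of the difference itself, for 25 features that were named or listed here. More negative in proliferating cells were Mirlet7b (-3.92), Mirlet7a-1 (-3.27), Mirlet7i (-2.27), Mirlet7f-2 (-2.18), Mirlet7g (-1.76) and Mirlet7d (-1.18), and the let-7j gene Mir7j (-1.84). The same direction was found for Mir26b (-1.65), Mir223 (-1.40), Mir122 (-4.40), Mir5099 (-1.96) and ENSMUSG00000076258.1 (-5.03), the last on 38 input and 5 IP counts in proliferating cells. More positive were Mir17 (1.90), Mir20b (1.21), Mir23a (1.77), Mir23b (1.69), Mir27a (1.59), Mir29c (1.18), Mir126a (2.34), Mir339 (1.78), Mir455 (3.33) and Mir1983 (2.32). Of the features over other small RNA genes or in Ncl, ENSMUSG00000105167.1 (1.77), Gm24148 (1.79) and Mir5121 (1.63) were less depleted in proliferating than in resting cells. All 25 kept their direction under the 6 other settings run for the difference. The number still called was 18 with DESeq2 size factors, 15 with library totals, 15 with upper-quartile factors, 23 with DESeq2's Wald test, 22 with the replicate block and 22 without the filter. Of the 6 let-7 genes 5 or 6 were called in each.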

How the results depend on the processing

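With library totals as scaling, 16 features were higher and 60 lower, 7 miR-17 cluster and 8 let-7 members were called, and Mir27b turned from 0.01 to -0.59 (edgeR adjusted p = 0.039). Sums by seed gave 14 sums or single features higher and 26 lower of 161. The difference between states passed for 25 features with DESeq2 size factors and 22 with upper-quartile factors, against 38. Leaving out 1 library at a time gave 30 to 63 calls, 11 to 31 higher and 16 to 37 lower; 33 were left without proliferating input replicate 1, 30 without input replicate 2, 45 without IP replicate 1 and 37 without IP replicate 2. It gave 11 to 46 for the difference, 6 to 11 for the miR-17 cluster members and 2 to 7 for let-7. The other settings gave 51 to 61 calls in the IP comparison: DESeq2's Wald test 60, no filter 51 of 560 features, the proliferating libraries alone 61 of 189. With the replicate number as a block, 55 features were called, 54 of them shared with the main 59. The labels do not say what the number marks, and same-numbered input and IP libraries were not treated as pairs. In proliferating cells the deviations of input 1 and IP 1 from their group means correlated at -0.0966 over the tested features. Those of replicate 2 are the same with opposite sign and add nothing to this. Of 1078 single values of 68 features under these settings, 119 lost their call, 26 gained one and 1 changed sign with a call. None of the 49 called features among them changed direction. Input depth, 213418 and 276287 counts, limits the falls of features with few counts.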
